A study of Mus musculus with 12 samples.

Results

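The genes described here are the 10 core members of the Notch pathway measured in the lungs of newborn mice: the receptors Notch1, Notch2, Notch3 and Notch4, the ligands Dll1, Dll4, Jag1 and Jag2, and the target genes Hes1 and Hey1. They were taken by gene symbol from a table of 52550 genes, and all 10 were found. All 10 are also among the 15885 of 21950 protein-coding genes that had enough reads to be tested. LPS raised the ligand Dll1 in both genotypes, 2.18-fold in wild-type (WT) and 4.30-fold in Adm+/- lungs, whichever single library was left out. In WT lungs the ligand Dll4 and the receptors Notch3 and Notch4 were also called lower, calls that were lost without 1 PBS library (WT PBS 5), when their log2 fold changes were -0.40, -0.37 and -0.44. In Adm+/- lungs Dll1 was the sole member called with all libraries, and Jag2, Notch3 and Notch4 were called lower as well without WT PBS 5, but not without Adm+/- PBS 6 (-0.48, -0.33 and -0.33) or without both of these libraries. With LPS in both genotypes, Dll1 was 1.87-fold higher in Adm+/- than in WT lungs, a call that was lost without WT LPS 11 or any 1 Adm+/- LPS library.

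Notch signaling passes between touching cells. A ligand of the Delta-like (Dll) or Jagged (Jag) family on one cell binds a Notch receptor on its neighbor, proteases cut the receptor, and the freed intracellular part enters the nucleus, where it joins the DNA-binding protein Rbpj and switches on genes such as Hes1 and Hey1. In the lung the pathway is known for setting arterial identity and limiting vessel sprouting in the endothelium, where Dll4 and Notch4 are typical, for the pericytes and smooth muscle of the vessel wall, where Notch3 is typical, and for the choice between club, ciliated and neuroendocrine fates in the airway.

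RNA was sequenced from 12 whole lungs, 1 mouse per library, in 4 groups of 3 pups on the C57Bl/6J background. Adm+/- pups carry 1 functional copy of Adm, the gene of the vasodilator peptide adrenomedullin, in all cells, from a 129/SvEv-derived line bred back to C57BL/6J for 12 generations, and WT pups carry both copies. LPS, a bacterial endotoxin (E. coli O55:B5), was injected intraperitoneally at 6 mg/kg once daily for 3 doses from postnatal day 3, and control pups got an equal volume of PBS. Pups were killed on day 5, with 6 h between the final injection and lung collection. Ribosomal RNA was depleted and a directional library kit was used. In whole lung, fewer cells of a type and less RNA per cell cannot be told apart.

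Libraries held 22382535 to 38062873 gene-assigned counts. Adm itself ranged from 3.96 to 7.09 CPM (a gene's counts scaled to a common library size) in WT PBS, 4.46 to 8.15 in WT LPS, 2.87 to 4.58 in Adm+/- PBS and 3.74 to 6.28 in Adm+/- LPS, so the genotypes overlapped at this low level. Its log2 fold change between genotypes was -0.50 with PBS and -0.55 with LPS (edgeR, Benjamini-Hochberg adjusted p = 0.999 and 0.480), running from -0.68 to -0.21 and from -0.82 to -0.40 with 1 library left out, nearest to 0 without WT PBS 4 and WT LPS 10. Libraries are named by their number in the labels. WT PBS 5 and Adm+/- PBS 6 stood apart, with 16.6% and 13.3% of counts on the single noncoding gene Gm26917, against 5.42 to 7.40% in the other 10 libraries, and with summed fibroblast marker levels of 44462 and 28801 CPM, against 15634 to 16903 CPM in the other 4 PBS libraries. Both enter the fits, and calls of members that turn on them are given with and without them.

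Promoter windows are shown for Dll1 and Dll4, the Delta-like ligands, and for Notch2, the member whose window held a kappa B match. Each runs from 250 bases before to 50 bases after a RefSeq gene start (GRCm38.p6), and is written 5′ to 3′ on the gene's own strand. Capitals mark a match to the kappa B consensus, the motif of NF-kappa B, the factor that LPS is best known to activate.
Dll1, chr17:15376883-15377182 (minus strand): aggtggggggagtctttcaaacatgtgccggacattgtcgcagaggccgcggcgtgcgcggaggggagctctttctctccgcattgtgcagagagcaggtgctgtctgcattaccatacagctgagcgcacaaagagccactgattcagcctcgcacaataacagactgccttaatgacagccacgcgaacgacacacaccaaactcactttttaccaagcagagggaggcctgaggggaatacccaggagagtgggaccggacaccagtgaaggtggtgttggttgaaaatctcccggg
Dll4, chr2:119325534-119325833 (plus strand): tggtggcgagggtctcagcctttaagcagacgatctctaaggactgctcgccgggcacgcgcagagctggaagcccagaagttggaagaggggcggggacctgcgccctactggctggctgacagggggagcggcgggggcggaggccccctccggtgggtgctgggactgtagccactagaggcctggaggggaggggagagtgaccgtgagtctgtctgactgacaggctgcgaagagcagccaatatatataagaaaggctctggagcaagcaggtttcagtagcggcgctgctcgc
Notch2, chr3:98013288-98013587 (plus strand): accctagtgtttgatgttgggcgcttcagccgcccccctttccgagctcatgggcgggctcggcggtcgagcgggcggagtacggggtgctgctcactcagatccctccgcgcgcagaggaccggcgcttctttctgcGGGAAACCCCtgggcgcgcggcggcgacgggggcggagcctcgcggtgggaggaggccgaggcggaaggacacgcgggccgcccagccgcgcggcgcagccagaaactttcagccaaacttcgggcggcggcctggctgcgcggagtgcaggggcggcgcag
For Dll1, RefSeq also holds a second start within the gene, with a window at chr17:15375774-15376073 that is not shown, and the printed window is that of the outer start. Windows were matched for 8 of the 10 members and not for Hes1 and Hey1. The kappa B consensus, searched on both strands, was found in the Notch2 window alone among the 8 genes, and in 4.51% of 32851 promoter windows of the same length. The core letters of the Rbpj motif, TGGGAA on either strand, were found in none of the 8, and in 25.6% of all windows. A match is a run of letters and not a measured binding site.

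Per kilobase of exon, Notch3 and Notch4 were the most abundant members and Dll1 the least abundant in control lungs. In WT PBS lungs Notch3 stood highest at a mean of 60.1 CPM per kilobase, followed by Notch4 at 44.5, Notch2 at 35.7, Dll4 at 33.3, Notch1 at 31.98, Hes1 at 25.3, Hey1 at 20.97, Jag2 at 16.1, Jag1 at 14.8 and Dll1 at 5.53. Of these neighbors only Jag1 and Dll1 had ranges that did not overlap. In Adm+/- PBS lungs the 10 genes stood in the same order, and Hes1 (29.3) was separate from Hey1 (16.9), as was Jag1 (14.2) from Dll1 (5.25). With LPS the order changed. Notch2 was first in both genotypes, at 43.01 CPM per kilobase in WT and 45.7 in Adm+/-, and its range lay above that of Notch3, which was next at 36.5 and 39.2. Dll1 reached 12.0 in WT LPS, where it overlapped Jag1 (14.99) and Jag2 (11.5), and 22.5 in Adm+/- LPS, above Hey1 (17.5), Jag1 (14.4) and Jag2 (8.77). Jag2 was last in both LPS groups.

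**Figure D1:**
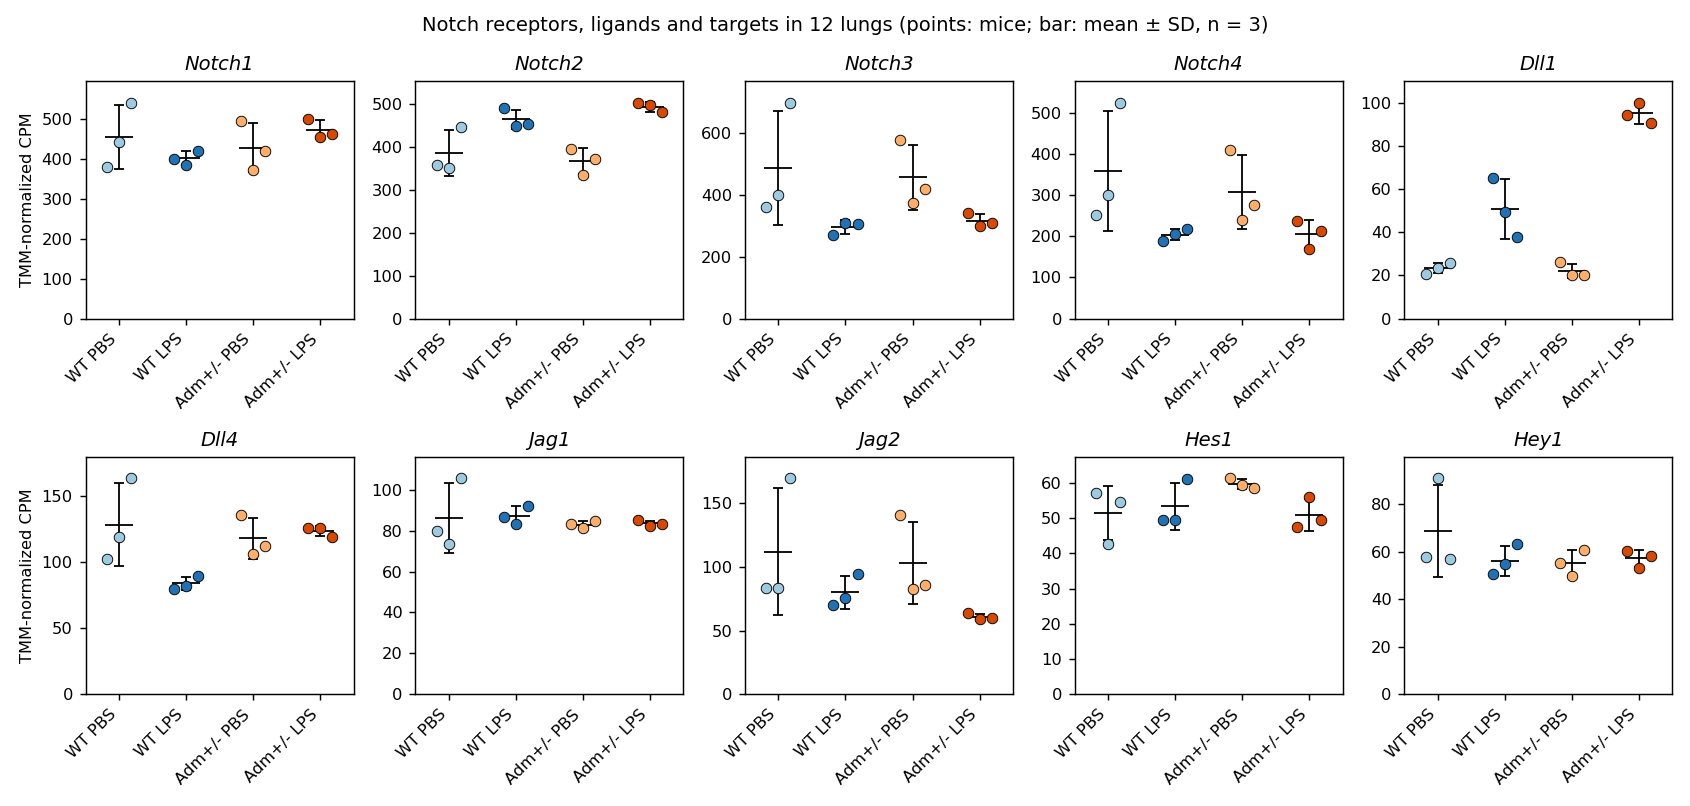
Level of each Notch member in every library, in CPM on a linear axis from 0, with 1 point per mouse and a bar for the mean of the 3 mice in each group. Dll1 lies at 20.04 to 26.0 CPM in all 6 PBS libraries, at 37.95 to 65.2 in WT LPS and at 90.6 to 100.05 in Adm+/- LPS, and WT PBS 5 is the highest PBS point for both Notch3 and Notch4.

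LPS in WT lungs called 4 of the 10 members, Dll1 higher and Dll4, Notch3 and Notch4 lower, where 17.6% of all tested genes were called (10.5% higher and 7.09% lower). A call needs a Benjamini-Hochberg adjusted p under 0.05 over all tested genes and a log2 fold change above 0.5 in size, by edgeR's quasi-likelihood test on all 12 libraries. Their median log2 fold change was -0.23, against 0.01 over all tested genes. In 5 members the WT LPS and WT PBS libraries did not overlap, where 36.2% of all tested genes did not. LPS in Adm+/- lungs called 1 member, Dll1, where 25% of all tested genes were called (12.8% higher and 12.2% lower), with 5 members at an unadjusted p under 0.05. Leaving out 1 library gave 1 to 4 members called in either genotype: without WT PBS 5 the counts were 1 in WT and 4 in Adm+/-, and without WT LPS 9 the WT count was 1, and the single WT call was Dll1 in both cases. Without Adm+/- PBS 8, WT LPS 10 or 11, or Adm+/- LPS 1, 2 or 12 the WT count was 2, Dll1 and Dll4, and without WT PBS 3 the Adm+/- count was 2, Dll1 and Jag2. In 6 members the Adm+/- libraries did not overlap between LPS and PBS, against 53.7% of all tested genes, and the members' median log2 fold change was 0.03, against -0.01. The difference in LPS response between genotypes called 0 of the 10 by edgeR, with 2 at an unadjusted p under 0.05 and 1 called by DESeq2, where 0.145% of all tested genes were called. The 2 LPS contrasts use separate libraries, whereas each genotype contrast shares its libraries with them.

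**Figure D2:**
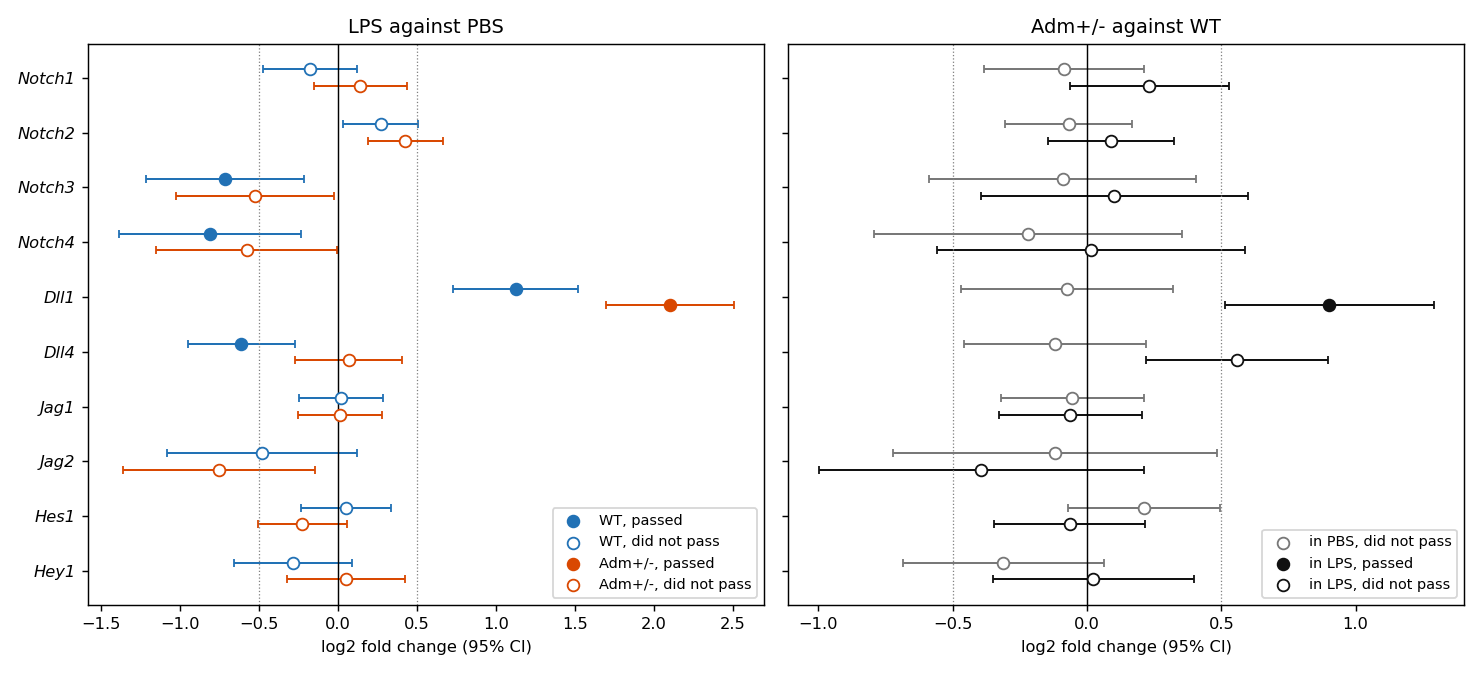
Log2 fold change of each member with its 95% confidence interval, for LPS against PBS within WT and within Adm+/- lungs on the left and for Adm+/- against WT lungs with PBS and with LPS on the right. Filled points passed the test, and dotted lines mark 0.5 on either side of 0. Dll1 is the sole member whose filled points lie to the right in both LPS contrasts.

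Notch1 (ENSMUSG00000026923, mm10 chr2:26457903-26516663, minus strand), the receptor best known from arterial endothelium and T cells, was measured at 381, 442 and 542 CPM in WT PBS libraries 3, 4 and 5 and at 401, 386 and 421 in WT LPS libraries 9, 10 and 11. In Adm+/- lungs it was at 495, 372 and 420.1 CPM in PBS libraries 6, 7 and 8 and at 500.1, 455 and 464 in LPS libraries 1, 2 and 12. PBS and LPS overlapped in both genotypes. Its log2 fold changes with LPS were -0.18 in WT and 0.14 in Adm+/-, neither past the test (edgeR, adjusted p = 0.367 and 0.464), and the WT value was -0.04 without WT PBS 5. Notch1 shares 1068 bases with 0610009E02Rik, at 0.748 to 2.21 CPM, and 414 with Gm13568, at 0 to 0.125 CPM, both on the opposite strand. The 3 Adm+/- LPS libraries were all above the 3 WT LPS libraries, by a log2 fold change of 0.23 that did not pass either (edgeR, adjusted p = 0.510).

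Notch2 (ENSMUSG00000027878, chr3:98013527-98150361, plus strand), widely expressed and needed in vessel wall and marginal zone B cells, was higher in all 6 LPS libraries than in the PBS libraries of the same genotype. It stood at 357, 351 and 446 CPM in WT PBS against 489, 448 and 454 in WT LPS, and at 395, 335 and 371 in Adm+/- PBS against 503, 497 and 481 in Adm+/- LPS. The rise in Adm+/- lungs had a log2 fold change of 0.43 ± 0.11 (SE) with an adjusted p of 0.0116 (edgeR), under the size limit of 0.5, so it was not called. In WT lungs the log2 fold change was 0.27 ± 0.11 (SE, edgeR adjusted p = 0.0942), and 0.39 (edgeR adjusted p = 0.00746) without WT PBS 5 and Adm+/- PBS 6. Over the alternatives tried, the WT log2 fold change ran from 0.21 to 0.39 and its adjusted p from 0.00746 to 1. Notch2 shares 541 bases with Gm42820 on its own strand, at 3.46 to 6.75 CPM.

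Notch3 (ENSMUSG00000038146, chr17:32120820-32166852, minus strand), the receptor of pericytes and vascular smooth muscle, was lower in every LPS library than in every PBS library of the same genotype. Its levels were 361, 400.0 and 699 CPM in WT PBS and 270.0, 310.0 and 307 in WT LPS. In Adm+/- lungs they were 576, 374 and 420.3 CPM with PBS and 341, 301 and 309.5 with LPS. WT PBS 5 and Adm+/- PBS 6 are the high value of each PBS group. In WT lungs Notch3 fell by 0.72 ± 0.23 (SE) on the log2 scale (edgeR, adjusted p = 0.0441), while the Adm+/- log2 fold change was -0.53 ± 0.23 (SE, edgeR adjusted p = 0.101). Without WT PBS 5 the WT value was -0.37 and the call was lost (edgeR, adjusted p = 0.124), while the Adm+/- value of -0.52 then passed (edgeR, adjusted p = 0.0130). Without both libraries that stood apart the WT value was -0.37 with an adjusted p of 0.0241 (edgeR), too small in size to be called, and the Adm+/- value was -0.32 with an adjusted p of 0.0249 (edgeR). Without Adm+/- PBS 6 alone the Adm+/- value was -0.33 (edgeR, adjusted p = 0.340). The adjusted p ran from 0.0164 to 1 over all alternatives in WT and from 0.0130 to 1 in Adm+/-. Notch3 shares 488 bases with the opposite-strand gene Gm17276.

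Notch4 (ENSMUSG00000015468, chr17:34564268-34588503, plus strand), the receptor most restricted to endothelium, showed the same arrangement. It was at 252, 299.7 and 524 CPM in WT PBS and at 189.5, 206 and 217 in WT LPS, with no overlap. The Adm+/- values were 409, 239.7 and 275 CPM with PBS and 236, 169.8 and 212 with LPS, again with no overlap, although the nearest libraries lay close together. Notch4 fell by 0.81 ± 0.26 (SE) on the log2 scale in WT lungs (edgeR, adjusted p = 0.0476), and the Adm+/- log2 fold change was -0.58 ± 0.26 (SE, edgeR adjusted p = 0.116). Without WT PBS 5 the WT value was -0.44 (edgeR, adjusted p = 0.160) and the Adm+/- value -0.57 (edgeR, adjusted p = 0.0283). Without Adm+/- PBS 6 the Adm+/- value was -0.33 (edgeR, adjusted p = 0.404). Without both it was -0.32 (edgeR, adjusted p = 0.0968), and the WT value was -0.44 (edgeR, adjusted p = 0.0485), under the size limit. The adjusted p ran from 0.0168 to 1 over the WT alternatives and from 0.0283 to 1 over the Adm+/- ones. The WT calls of both Notch3 and Notch4 were also lost on leaving out WT LPS 9, 10 or 11, Adm+/- PBS 8, or any 1 Adm+/- LPS library, with adjusted p between 0.0547 and 0.156.

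Dll1 (ENSMUSG00000014773, chr17:15367354-15376872, minus strand), a ligand of the Delta-like family, gave the largest LPS response of the 10 members in both genotypes. It was measured at 20.9, 23.5 and 25.6 CPM in WT PBS and at 65.2, 49.2 and 37.95 in WT LPS. Adm+/- libraries held 26.0, 20.3 and 20.04 CPM with PBS and 94.5, 100.05 and 90.6 with LPS. Every LPS library stood above every PBS library, and every Adm+/- LPS library above every WT LPS library, while the PBS libraries of the 2 genotypes overlapped. Group means were 23.3 ± 2.37 CPM (SD, n = 3) in WT PBS, 50.8 ± 13.7 in WT LPS, 22.1 ± 3.38 in Adm+/- PBS and 95.1 ± 4.73 in Adm+/- LPS. These values rest on 414 to 537 counts per library in WT PBS and 2388 to 2544 in Adm+/- LPS.

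Dll1 rose 2.18-fold in WT lungs, a log2 fold change of 1.13 ± 0.18 (SE, 95% confidence interval 0.73 to 1.52, edgeR adjusted p = 0.00175), and 4.30-fold in Adm+/- lungs, a log2 fold change of 2.104 ± 0.18 (SE, 1.70 to 2.51, edgeR adjusted p = 5.91e-05). Leaving out any 1 library moved the WT value between 0.90 and 1.30 and the Adm+/- value between 2.04 and 2.23, and both stayed past the test each time. The difference between these responses was 0.98 ± 0.25 (SE, 0.43 to 1.53) on the log2 scale, with an unadjusted p of 0.00238 and an edgeR adjusted p of 0.289. DESeq2 gave the same size, 0.98, with an adjusted p of 0.0388, and over all alternatives the adjusted p ran from 0.0388 to 1. Within LPS-treated lungs Dll1 was 1.87-fold higher in Adm+/- than in WT, a log2 fold change of 0.90 ± 0.18 (SE, 0.51 to 1.29, edgeR adjusted p = 0.0260). This call was lost without WT LPS 11 (0.73, adjusted p = 0.0762) or without Adm+/- LPS 1, 2 or 12 (0.87 to 0.94, adjusted p from 0.0916 to 0.125). It was also lost in a fit of the 6 LPS libraries alone (0.90, adjusted p = 0.0597), and its adjusted p ran from 0.00022 to 0.664 over the alternatives (edgeR unless another tool is the alternative). The gene shares 867 bases with A930024N18Rik on the opposite strand, which was at 0.432 to 1.51 CPM, and since the strand setting of the counting is not given, reads from shared bases cannot be assigned to either gene.

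Dll4 (ENSMUSG00000027314, chr2:119325784-119335962, plus strand), the Delta-like ligand of endothelial tip cells and arteries, was lower with LPS in WT lungs and had a log2 fold change near 0 in Adm+/- lungs. Its levels were 103, 119 and 163 CPM in WT PBS and 79.6, 82.2 and 89.6 in WT LPS, with no overlap. The Adm+/- libraries gave 136, 106 and 112 CPM with PBS and 126, 126 and 119 with LPS, where the LPS libraries sat inside the PBS range. In WT lungs Dll4 fell by 0.61 ± 0.16 (SE) on the log2 scale (95% confidence interval -0.95 to -0.27, edgeR adjusted p = 0.0177), and the Adm+/- log2 fold change was 0.07 ± 0.15 (SE, -0.27 to 0.40, edgeR adjusted p = 0.783). The difference between the responses was 0.68 ± 0.22 (SE, 0.20 to 1.16), with an unadjusted p of 0.00950 that did not pass after adjustment (edgeR, adjusted p = 0.421, from 0.143 to 1 over the alternatives).

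Without WT PBS 5 the WT change of Dll4 was -0.40 (edgeR, adjusted p = 0.0305), and without WT PBS 5 and Adm+/- PBS 6 it was -0.40 (edgeR, adjusted p = 0.0108), in both cases under the size limit. Without WT LPS 9 it was -0.58 with an adjusted p of 0.0736 (edgeR), and over all alternatives the adjusted p ran from 0.00303 to 1. With LPS, all 3 Adm+/- libraries had more Dll4 than all 3 WT libraries, a log2 fold change of 0.56 ± 0.16 (SE, 0.22 to 0.90) that did not pass (edgeR, adjusted p = 0.0902). It did pass by DESeq2 (0.56, adjusted p = 0.0228), in a fit of the 6 LPS libraries alone (0.55, edgeR adjusted p = 0.0132) and without WT PBS 5 (0.57, edgeR adjusted p = 0.0144), and the adjusted p ran from 0.00462 to 1 over the alternatives. Dll4 shares 214 bases with the opposite-strand gene Gm14207, at 1.43 to 4.94 CPM.

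Jag1 (ENSMUSG00000027276, chr2:137081456-137116644, minus strand), the Jagged ligand of vessel wall and airway, varied little. It was at 79.7, 73.3 and 106 CPM in WT PBS, 86.6, 83.1 and 92.3 in WT LPS, 83.1, 81.1 and 84.6 in Adm+/- PBS and 85.0, 82.5 and 83.5 in Adm+/- LPS. The groups overlapped in both LPS contrasts, and the log2 fold changes were 0.02 in WT (95% confidence interval -0.25 to 0.29, edgeR adjusted p = 0.922) and 0.01 in Adm+/- (-0.25 to 0.28, edgeR adjusted p = 0.948).

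Jag2 (ENSMUSG00000002799, chr12:112907819-112929776, minus strand), the other Jagged ligand, was lower in the 3 Adm+/- LPS libraries than in any of the other 9. It was at 83.3, 83.5 and 169.7 CPM in WT PBS and 70.0, 76.1 and 94.6 in WT LPS, which overlapped. Adm+/- levels were 140.5, 82.7 and 86.3 CPM with PBS and 63.5, 59.4 and 60.3 with LPS, which did not. The 2 libraries that stood apart again held the high PBS values. The log2 fold change was -0.76 ± 0.28 (SE, 95% confidence interval -1.36 to -0.15) in Adm+/- lungs, just short of the threshold (edgeR, adjusted p = 0.0582), and -0.48 in WT lungs (edgeR, adjusted p = 0.227). The Adm+/- change passed without WT PBS 5 (-0.75, edgeR adjusted p = 0.00795), without WT PBS 3 (-0.76, edgeR adjusted p = 0.0493) and by DESeq2 (-0.75, adjusted p = 0.0315). Without Adm+/- PBS 6 it was -0.48 (edgeR, adjusted p = 0.235) and without that library and WT PBS 5 it was -0.47 (edgeR, adjusted p = 0.0114), under the size limit. The WT value was -0.06 without WT PBS 5 (edgeR, adjusted p = 0.873). Over all alternatives the adjusted p of the Adm+/- change ran from 0.00795 to 0.943.

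Hes1 (ENSMUSG00000022528, chr16:30064384-30067796, plus strand), a repressor of differentiation genes and the classic Notch target, was at 57.2, 42.7 and 54.7 CPM in WT PBS and at 49.5, 49.4 and 61.1 in WT LPS. With the Adm+/- genotype the values were 61.3, 59.4 and 58.5 CPM with PBS and 47.5, 56.1 and 49.4 with LPS. The Adm+/- groups did not overlap, and the 3 Adm+/- PBS libraries also lay above the 3 WT PBS libraries. None of these differences passed: the log2 fold change with LPS was 0.05 in WT (95% confidence interval -0.23 to 0.33, edgeR adjusted p = 0.804) and -0.23 in Adm+/- (-0.51 to 0.05, edgeR adjusted p = 0.204), and that between genotypes with PBS was 0.21 (edgeR, adjusted p = 0.999).

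Hey1 (ENSMUSG00000040289, chr3:8663359-8667256, minus strand), a related repressor that acts in arterial endothelium, was at 57.8, 90.8 and 56.8 CPM in WT PBS and at 50.6, 54.9 and 63.0 in WT LPS. In Adm+/- lungs it was at 55.1, 49.8 and 60.5 CPM with PBS and at 60.3, 53.0 and 57.9 with LPS. The groups overlapped, and WT PBS 4 was the 1 high library. The log2 fold change with LPS was -0.29 in WT (95% confidence interval -0.66 to 0.09, edgeR adjusted p = 0.246) and 0.05 in Adm+/- (-0.32 to 0.42, edgeR adjusted p = 0.855), and the WT value was -0.03 without WT PBS 4.

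Between genotypes with PBS, edgeR called 0 of the 10 members, with 0 at an unadjusted p under 0.05 and 0 called by DESeq2, where 0% of all tested genes were called. Groups did not overlap in 1 member, Hes1, against 4.99% of all tested genes. With LPS, edgeR called 1 of 10, Dll1, where 2.05% of all tested genes were called (0.327% higher and 1.72% lower), with 2 members at an unadjusted p under 0.05. Groups did not overlap in 4 members, with Notch1, Dll1 and Dll4 higher and Jag2 lower in Adm+/-, where 24.6% of all tested genes did not overlap. Jag2 had a log2 fold change of -0.39 between genotypes with LPS (edgeR, adjusted p = 0.619), and Hey1 one of -0.31 with PBS (edgeR, adjusted p = 0.999). Members not named here lay between -0.22 and -0.06 with PBS and between -0.06 and 0.10 with LPS, none past the test.

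Taken as shares of a library's own ligand total, which does not depend on how the library was scaled, the ligand mix also moved with LPS. Dll1 made up 6.67 to 9.14% of the summed ligand level per kilobase in WT PBS and 7.81 to 8.30% in Adm+/- PBS, against 14.6 to 25.3% in WT LPS and 28.4 to 29.999% in Adm+/- LPS. The ratio of Dll4 to Dll1 per kilobase was 5.39 to 6.995 in WT PBS and 5.71 to 6.14 in Adm+/- PBS, and 1.34 to 2.59 in WT LPS and 1.38 to 1.46 in Adm+/- LPS. The ratios of the 2 LPS groups overlapped, although Dll1 itself did not, and Dll4 was also higher in the Adm+/- LPS libraries. Jag2 made up 10.8 to 11.6% of the ligands in Adm+/- LPS, below every other library (16.5 to 26.8%).

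Among the receptors, Notch2 took 17.9 to 24.4% of the summed level per kilobase in WT PBS and 18.9 to 23.3% in Adm+/- PBS, and 30.8 to 34.8% in WT LPS and 30.4 to 33.8% in Adm+/- LPS. Notch3 went the other way, from 32.9 to 37.4% and 34.6 to 36.8% with PBS to 25.6 to 28.9% and 27.0 to 27.5% with LPS. For both receptors the PBS and LPS libraries did not overlap, WT PBS 5 and Adm+/- PBS 6 included. The summed receptor level was 130.4 to 136.5 CPM per kilobase in WT LPS and 136 to 153 in Adm+/- LPS, and 136 to 231 and 133 to 193 with PBS. These shares describe the mix in each library and were not tested.

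**Figure D3:**
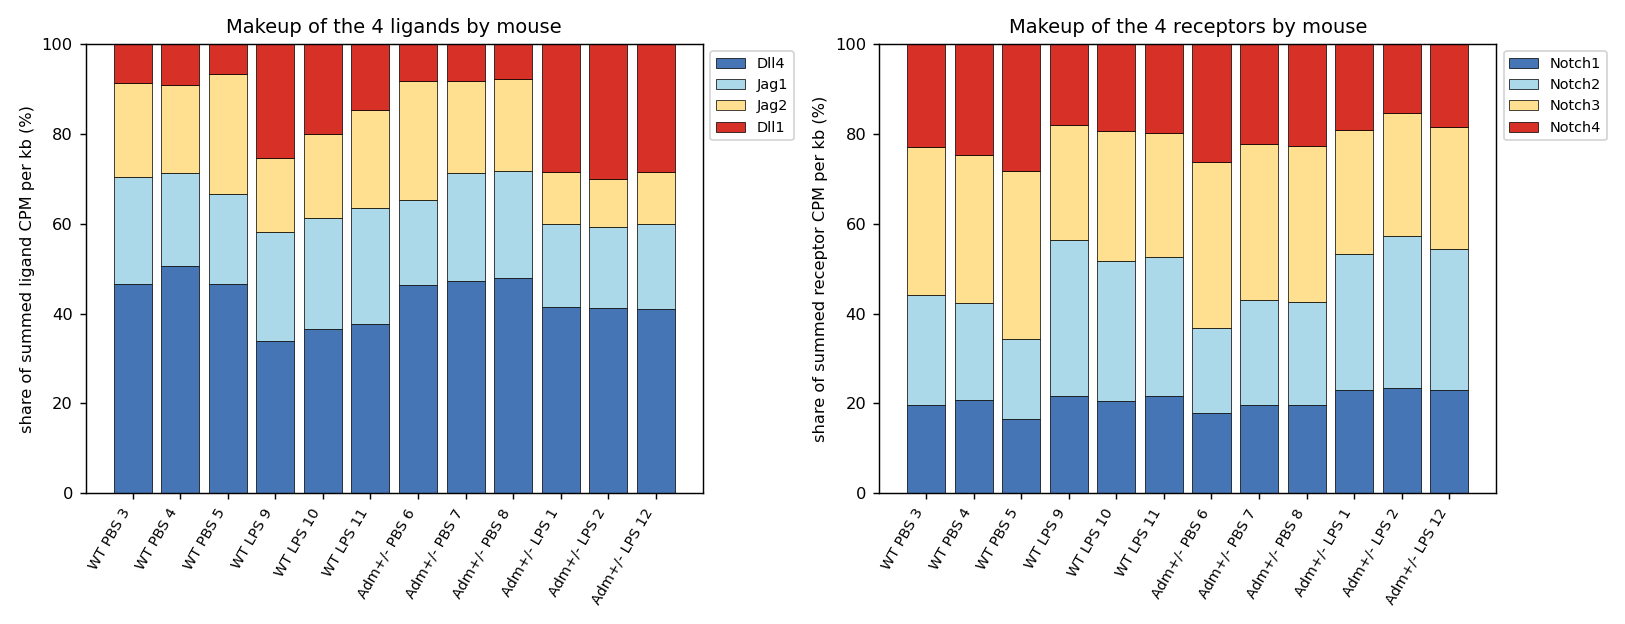
Share of each ligand in the summed ligand level and of each receptor in the summed receptor level, in percent of CPM per kilobase, as 1 stacked bar per mouse for the 12 libraries in 4 groups. The Dll1 segment spans 28.4 to 29.999% in Adm+/- LPS against 6.67 to 9.14% in WT PBS, and the Notch2 segment is wider in all 6 LPS bars than in the 6 PBS bars.

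The tested gene whose profile over the 12 libraries was nearest to each member was found by the root mean square difference of log2 CPM after centring each gene on its own mean. For Dll1 it was Sbno2 (0.150, against a median of 0.930 over all tested genes). For 3 of the receptors the nearest genes were Trio for Notch1 (0.0620), Prkab1 for Notch2 (0.0564) and Exoc3l for Notch4 (0.0865). For the other ligands they were Plxnd1 for Dll4 (0.0890), R3hdm4 for Jag1 (0.0765) and Arhgef10l for Jag2 (0.0955). Heyl, itself a Notch target, was nearest to Hes1 (0.111), and Cacna1e was nearest to Hey1 (0.126). Likeness is a description over shared libraries, and flat genes are near to many others.

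Of 75 other genes of the pathway, 72 had enough reads to be tested. LPS called 7 of them in WT lungs (9.72%), 1 higher and 6 lower, and 16 in Adm+/- lungs (22.2%), 7 higher and 9 lower, where 17.6% and 25% of all tested genes were called. Their median log2 fold changes were 0.01 and -0.03. Without WT LPS 9 the WT count was 1. For the difference in response edgeR called 0, with 4 at an unadjusted p under 0.05 and 0 by DESeq2. Between genotypes edgeR called 0 with PBS (1 at an unadjusted p under 0.05, 0 by DESeq2) and 0 with LPS (7 and 1). Dll3, Hes5 and Ptcra were too low to be tested.

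Among ligands and ligand-binding proteins beyond the members, 5 were tested, and Mfap2, a microfibril protein that binds Jagged ligands, fell in both genotypes, by 0.55 in WT (edgeR, adjusted p = 0.00730) and by 0.57 in Adm+/- (edgeR, adjusted p = 0.00368) on the log2 scale. Dlk2, an atypical ligand, was called higher in WT (2.76, edgeR adjusted p = 0.0165) on levels of 6.10, 0.707 and 4.46 CPM in WT LPS 9, 10 and 11 against 0.388 to 0.680 in WT PBS. The call was lost without WT LPS 9 (2.20, edgeR adjusted p = 0.0785), with adjusted p from 0.000663 to 0.367 over the alternatives. The summed squamous and basal epithelial markers of the same 3 libraries, in the same order, were 3591, 73.6 and 1852 CPM. Their part in the Dlk2 values was not tested. Of 7 genes of ligand endocytosis, Mib2, an E3 ligase that activates ligands, fell in both genotypes (-0.77 in WT, edgeR adjusted p = 0.0354, and -0.82 in Adm+/-, edgeR adjusted p = 0.0206). Neurl1b, another such ligase, fell by 0.94 in WT (edgeR, adjusted p = 0.0182) with -0.67 in Adm+/- (edgeR, adjusted p = 0.0524). Its Adm+/- change passed by DESeq2 (-0.66, adjusted p = 0.0291) and without WT PBS 5 (-0.66, edgeR adjusted p = 0.0251). Without Adm+/- PBS 6 it was -0.50 and not called.

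Of 7 genes of receptor glycosylation and maturation, edgeR called 0 in WT (1 at an unadjusted p under 0.05, 0 by DESeq2), and in Adm+/- lungs Furin, the protease that matures the receptor, rose (0.76, edgeR adjusted p = 0.00243) while Rfng, a Fringe glycosyltransferase, fell (-0.53, edgeR adjusted p = 0.0455). Of 9 genes of receptor cleavage, the gamma-secretase subunits Psen2 and Aph1b were called in Adm+/- lungs, Psen2 higher (0.63, edgeR adjusted p = 0.0134) and Aph1b lower (-0.60, edgeR adjusted p = 0.0261). In WT edgeR called 0 (2 at an unadjusted p under 0.05, 0 by DESeq2). The WT value of Psen2 was 0.46 (edgeR, adjusted p = 0.0670), and 0.64 and called without WT PBS 5 (edgeR, adjusted p = 0.0125). Of 10 genes of receptor degradation and inhibition, 3 were called higher in Adm+/- lungs: Dtx4 (1.07, edgeR adjusted p = 0.000202), Dtx3l (1.49, edgeR adjusted p = 0.00750) and Dtx2 (0.60, edgeR adjusted p = 0.00635). Their WT values were 0.49, 0.92 and 0.42 (edgeR, adjusted p = 0.0226, 0.0749 and 0.0438), none called by edgeR and 1 of the 10 genes called by DESeq2. Dtx4 and Dtx2 thus missed in WT on size alone. Dtx4 was called there without WT PBS 4 (0.65, edgeR adjusted p = 0.00522) and Dtx2 without WT LPS 11 (0.54, edgeR adjusted p = 0.0183). The difference between genotypes was not called for Dtx4, Dtx3l or Dtx2. The other Deltex genes tested, Dtx3 of this role and Dtx1 of the targets, both named after their values were seen, had log2 fold changes of -0.25 and -0.17 in Adm+/- and -0.37 and 0.19 in WT lungs and were not called. Dtx3l shares 458 bases with Parp9.

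Of 9 genes of the nuclear complex, edgeR called 0 in either genotype, with 3 in WT and 2 in Adm+/- at an unadjusted p under 0.05 and 0 by DESeq2. Rbpj, the DNA-binding partner of the cut receptor, stood at 87.8 to 129 CPM over the 12 libraries, with log2 fold changes of 0.14 in WT (edgeR, adjusted p = 0.377) and 0.18 in Adm+/- (edgeR, adjusted p = 0.232). Of 15 corepressors, Ctbp1 was called lower in WT (-0.54, edgeR adjusted p = 0.0491), a gene named after its value was seen. That call was lost in 9 of 12 fits with 1 library left out, with log2 fold changes of -0.61 to -0.29 in those 9, the smallest in size without WT PBS 5 (edgeR, adjusted p = 0.134). In Adm+/- lungs the Groucho-family genes Tle1 (0.51, edgeR adjusted p = 0.0301) and Tle3 (0.51, edgeR adjusted p = 0.00444) rose, and Tle2 (-0.80, edgeR adjusted p = 0.0156) and the deacetylase gene Hdac2 (-0.52, edgeR adjusted p = 0.00185) fell. Of 10 targets beyond the members, Sox17, an arterial transcription factor, fell by 0.83 in WT (edgeR, adjusted p = 0.0129) and by 1.34 in Adm+/- (edgeR, adjusted p = 0.000535) on the log2 scale. Ccnd1, the cyclin of cell cycle entry, fell in both (-0.73, edgeR adjusted p = 0.0111, and -0.54, edgeR adjusted p = 0.0296), and Snai2, a mesenchymal transcription factor, fell in Adm+/- (-1.14, edgeR adjusted p = 0.0177). The Hes and Hey family genes tested (Hes2, Hes6, Hes7, Hey2 and Heyl) had adjusted p of 0.0556 or more by edgeR in both genotypes.

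Some of these calls held when each of the 12 libraries was left out in turn, and others did not. Sox17 stayed called in both genotypes, and Mfap2, Furin, Dtx2, Dtx3l and Dtx4 stayed called in Adm+/- lungs. Without WT LPS 9 the WT list kept 1 call of 7, with Mfap2 at -0.43, Neurl1b at -0.76, Mib2 at -0.67 and Ccnd1 at -0.65 (edgeR, adjusted p = 0.0204, 0.0818, 0.142 and 0.0566). Without Adm+/- LPS 12 the Adm+/- list had 8 calls, and without Adm+/- PBS 7 or 8 it had 10. Among the Adm+/- calls, leaving out Adm+/- PBS 6, 7 or 8 or Adm+/- LPS 1, 2 or 12 moved Rfng to between -0.60 and -0.43, Ccnd1 to between -0.62 and -0.41, Tle1 to between 0.43 and 0.63, Tle2 to between -0.91 and -0.65, Tle3 to between 0.46 and 0.53, Hdac2 to between -0.55 and -0.47, Psen2 to between 0.55 and 0.73, Aph1b to between -0.67 and -0.51, Mib2 to between -0.96 and -0.68 and Snai2 to between -1.40 and -0.94, and each lost its call at least once. Rfng also lost it without WT LPS 9, 10 or 11, and Neurl1b and Mib2 lost their WT calls without WT PBS 5 (-0.72 and -0.45).

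**Figure D4:**
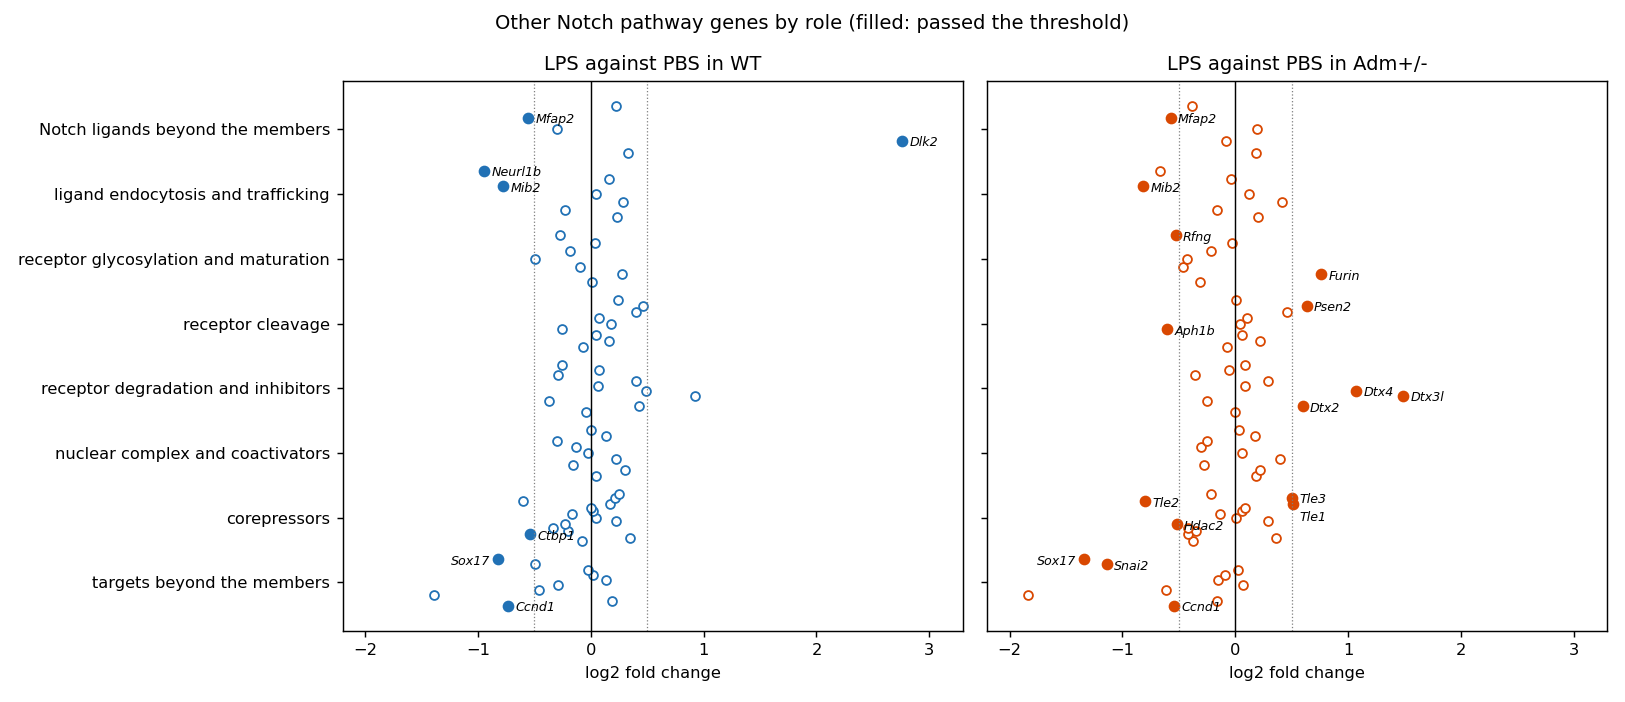
Log2 fold change with LPS of the 72 tested genes of the wider Notch pathway, grouped by role, in WT and in Adm+/- lungs, with filled and named points for genes that passed the test. Dtx2, Dtx3l and Dtx4 stand to the right in Adm+/- lungs, and Sox17 and Ccnd1 to the left in both genotypes.

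Marker genes of several of the cell types that carry these proteins moved with LPS as well, while others did not, and their part in the results was not tested. The 9 arterial endothelial markers, led by Fbln5, Efnb2 and Cxcl12 and including Sox17, summed to 1689 to 1906 CPM in WT PBS and 881 to 1092 in WT LPS, and to 1725 to 1905 in Adm+/- PBS and 1106 to 1235.5 in Adm+/- LPS. Of these 9, 7 were called lower in each genotype. The 15 general endothelial markers, led by Cdh5, Calcrl and Pecam1, summed to 4864 to 5236 CPM in WT PBS and 4187 to 4221 in WT LPS, with 2 called lower, and to 4984 to 5212.5 and 4426 to 4871 in Adm+/-, with 1 called higher and 3 lower. Arterial markers thus stood lower with LPS in both genotypes, while Dll4 passed its test in WT and not in Adm+/- lungs, responses whose difference did not pass. General capillary markers, led by Ptprb, Sparcl1 and Plvap, summed to 1672 to 1926.5 CPM in WT PBS and 1659.6 to 1762 in WT LPS, and to 1747 to 2006 and 1694 to 2037 in Adm+/-, overlapping in both genotypes, with 0 of 6 called by edgeR in WT (2 at an unadjusted p under 0.05) and 1 called higher in Adm+/-. Aerocyte markers, led by Emp2, Tbx2 and Prx, summed to 1966 to 2797 CPM in WT PBS and 1705 to 1930.2 in WT LPS, and to 1934 to 2412 and 1874 to 1884 in Adm+/-, without overlap but with 0 of 7 called by edgeR in either genotype (1 and 2 at an unadjusted p under 0.05).

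Pericyte markers, led by Postn, Pdgfrb and Cspg4, with 10 of 12 found, summed to 1462.5 to 1581 CPM in WT PBS and 1179.6 to 1332 in WT LPS, with 1 called lower, and to 1602 to 1639 and 1321 to 1499 in Adm+/-, with 0 called by edgeR and 4 at an unadjusted p under 0.05. Smooth muscle markers, led by Mylk, Acta2 and Myh11, summed to 1974.5 to 2537 CPM in WT PBS and 1452 to 2122 in WT LPS, which overlapped, and to 1966 to 2329.8 and 1389 to 1667 in Adm+/-, which did not. Fibroblast markers, led by Col1a1, Col3a1 and Col1a2, summed to 16214 to 44462 CPM in WT PBS and 11123 to 15631 in WT LPS, and to 15634 to 28801 and 11878 to 13954 in Adm+/-, with 2 of 10 called higher and 1 lower in WT and 3 lower in Adm+/-. Notch3 and the summed pericyte level were both without overlap between PBS and LPS in each genotype. The same held for the arterial, general endothelial, aerocyte and fibroblast sums, all lower with LPS, but not for smooth muscle in WT. Of all tested genes, 36.2% in WT and 53.7% in Adm+/- did not overlap.

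Neuroendocrine markers, led by Uchl1, Grp and Syp, a lineage in which Dll1 is known to be expressed, summed to 18.2 to 26.6 CPM in WT PBS and 21.5 to 27.2 in WT LPS, which overlapped, and to 15.9 to 18.6 in Adm+/- PBS and 27.9 to 28.3 in Adm+/- LPS, which did not. Of the 7 tested, 1 was called higher in WT and 3 in Adm+/-, and Chga was at 0 in the Adm+/- PBS libraries. Neutrophil markers rose in both genotypes (8 and 9 of 9 tested called higher), with sums of 31.1 to 141 CPM in WT PBS, 29.5 to 47.4 in Adm+/- PBS, 1161 to 2065 in WT LPS and 1150.5 to 1423 in Adm+/- LPS. Monocyte and macrophage markers rose too (9 and 8 of 10), from 1035 to 1267 and 1009.9 to 1230.0 CPM with PBS to 1608 to 2199.5 and 1649 to 2186 with LPS. Both myeloid sums overlapped between the 2 LPS groups. Ciliated and club cell markers, led by Scgb1a1, Hp and Scgb3a2, summed to 1563 to 2484 CPM in WT PBS, 3122 to 3463 in WT LPS, 1467 to 2240.4 in Adm+/- PBS and 3961 to 4119 in Adm+/- LPS. Like Dll1, this sum was higher in every LPS library than in every PBS library, and higher in every Adm+/- LPS than in every WT LPS library. Of its 10 genes 2 were called higher in WT, and 1 higher and 1 lower in Adm+/- lungs. Between genotypes with LPS edgeR called 0 of these 10 genes, with 2 at an unadjusted p under 0.05. In that contrast 24.6% of all tested genes did not overlap.

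Squamous and basal epithelial markers (called squamous here) summed to 73.6 to 3591 CPM in the WT LPS libraries, and skeletal muscle markers to 499 to 1428. Any other library held at most 92.3 and 49.3 CPM, and 9 of 10 and 10 of 10 tested were called higher in WT. Between genotypes with LPS, 5 and 9 of them were called lower in Adm+/-, where Dll1 was called higher. These markers, which belong to cells outside the lung parenchyma, thus differ in the same contrast as Dll1 but in the opposite direction. Squamous sums were 3591 CPM in WT LPS 9, 73.6 in WT LPS 10 and 1852 in WT LPS 11, and skeletal muscle sums were 1428, 1364 and 499 CPM. Dll1 in the same libraries stood at 65.2, 49.2 and 37.95 CPM. The part of these markers in the Dll1 and Dll4 values was not tested. Of that group, WT LPS 9 had the highest Dll1 and the lowest Dll4 level, and without it the genotype log2 fold change with LPS was 1.13 for Dll1 (edgeR, adjusted p = 0.00655). Without it too the WT response to LPS called Dll1 alone of the 10 members, at 0.90 (edgeR, adjusted p = 0.00638).

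**Figure D5:**
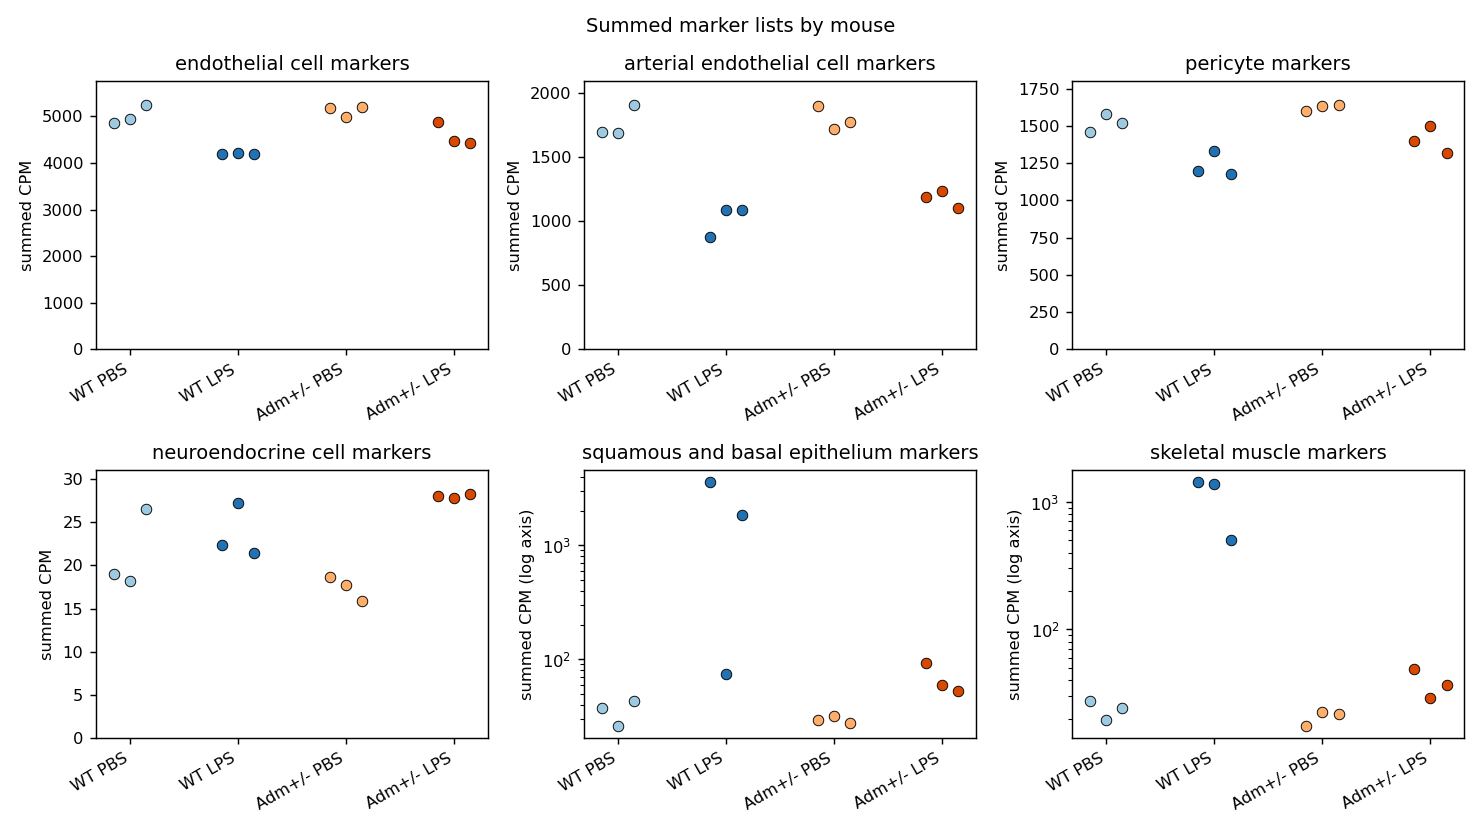
Summed level of 6 marker gene lists in every library, in CPM, with 1 point per mouse and a log axis in the bottom middle and bottom right panels. Arterial markers lie at 1689 to 1906 CPM in all PBS libraries and at 881 to 1235.5 in all LPS libraries, skeletal muscle markers at 499 to 1428 CPM in WT LPS, and squamous markers at 1852 and 3591 CPM in 2 of the 3 WT LPS libraries.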

How the data were processed

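Counts per gene were deposited for 12 libraries: the authors trimmed reads with Trim Galore, aligned them to mm10 with HISAT2 and counted them over Gencode genes with featureCounts, per their methods and processing notes. The Gencode release and the strand option of the counting are not given in the sources used here. Positions come from Gencode M21, which matched 99.72% of the genes. The members and gene lists were chosen with earlier results of these data known. Library totals were 22382535 to 38062873, and no value carries more precision than 3 mice per group allow.

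Protein-coding genes were kept by edgeR's filterByExpr (15885 of 21950), scaled by TMM and fitted with edgeR's quasi-likelihood test (R 4.3.3, edgeR 4.0.16) as 4 groups with 8 residual degrees of freedom and 5 contrasts. Adjusted p are Benjamini-Hochberg values over all tested genes, and a call needs one under 0.05 with a log2 fold change above 0.5 in size. All 10 members and Adm are named. Of the wider pathway, up to 4 called genes per role with the smallest p are named, and Rbpj. Ctbp1, Tle4, Dtx1, Dtx3, the other Hes and Hey family genes and the untested genes are named outside this rule. Of a marker list the 3 most abundant genes are named. The gene nearest in profile to each member is named, except for Notch3, where it is not reported here. Alternatives were DESeq2 1.42.0, limma-voom (limma 3.58.1), other scalings, filters and thresholds, and leaving out each library. The code was tested on simulated data. Library numbers run over all 12 libraries and say nothing of pairing.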

Additional observations from a re-analysis of the deposited data

Results flagged for a closer look

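Tle4, a Groucho-family corepressor picked out after its values were seen, had log2 fold changes of opposite sign in the 2 genotypes, neither of them called. It stood at 62.7 to 66.6 CPM in WT PBS and 73.9 to 80.0 in WT LPS, a log2 fold change of 0.25 (edgeR, adjusted p = 0.0527), and at 69.3 to 76.2 in Adm+/- PBS and 59.4 to 64.5 in Adm+/- LPS, a log2 fold change of -0.21 (edgeR, adjusted p = 0.0668). Every LPS library was above every PBS library in WT and below in Adm+/-, where 36.2% and 53.7% of all tested genes did not overlap. The Adm+/- PBS libraries also all lay above the WT PBS libraries (log2 fold change 0.16, edgeR adjusted p = 0.999). The difference between the responses, -0.46 on the log2 scale, did not pass after adjustment over all tested genes (edgeR, adjusted p = 0.275).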

How the results depend on the processing

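No paired analysis was run, because the labels used here name no litter or pair. Of 540 member fold changes refitted under other settings, 505 kept their direction and call, 20 lost a call, 9 gained one and 6 changed sign, and with 1 library left out 541 of 600 kept both. The number of members called in WT, 4, became 2 by limma-voom and over all annotated genes, 1 by edgeR glmTreat, in a fit of the 6 libraries compared and without WT PBS 5 and Adm+/- PBS 6, 0 by limma-voom treat, and 1 to 4 with 1 library left out. In Adm+/- the 1 call became 2 by DESeq2 and on adjusted p alone, 4 in a fit of 6 libraries, and 1 to 4 with 1 library left out. For the difference in response 0 became 1 by DESeq2. Between genotypes with LPS the 1 call became 2 by DESeq2 and without WT PBS 5 and Adm+/- PBS 6, stayed 1 but with Dll4 in place of Dll1 in a fit of 6 libraries, and became 0 by either treat test and 0 to 2 with 1 library left out. For the wider pathway the 7 WT calls became 13 on adjusted p alone, 1 by glmTreat, and 0 by limma-voom treat and in a fit of 6 libraries, and the 16 Adm+/- calls became 3 and 2 by the treat tests.

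None of the log2 fold changes that changed sign was called. Over all annotated genes Jag1 became -0.0156 in WT, -0.0016 in Adm+/- and 0.0140 for the difference. Between genotypes with PBS, leaving out WT PBS 5 and Adm+/- PBS 6 gave 0.0659 for Notch3, 0.1185 for Jag1 and 0.0234 for Jag2. With 1 library left out, the LPS response in WT ran from -0.0866 to 0.1874 for Jag1 and -0.0703 to 0.1307 for Hes1, and in Adm+/- from -0.0077 to 0.1702 for Dll4, -0.0045 to 0.0266 for Jag1, -0.0197 to 0.1217 for Hey1 and -0.3424 to 0.4135 for Dlk2. The difference in response then ran from -0.1526 to 0.3888 for Notch3, -0.1364 to 0.4846 for Notch4, -0.1691 to 0.0984 for Jag1 and -0.6888 to 0.0066 for Jag2. Between genotypes with PBS the ranges were -0.1976 to 0.0582 for Notch1, -0.1298 to 0.0509 for Notch2, -0.2892 to 0.2626 for Notch3, -0.4734 to 0.1583 for Notch4, -0.2580 to 0.0903 for Dll4, -0.1591 to 0.1156 for Jag1 and -0.4025 to 0.3037 for Jag2, and with LPS -0.0960 to 0.1384 for Notch4, -0.1357 to 0.0447 for Hes1 and -0.0417 to 0.1146 for Hey1. Levels per kilobase without TMM scaling stayed within 1 SD except Notch2 and Jag1 in Adm+/- LPS, at 44.6 and 14.0. The cause of these shifts was not tested, and 3 mice per group limit what can be called.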
